A study of Mus musculus with 8 samples.

Results

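A set of 9 genes that are widely used to recognise neural stem cells of the adult ventricular-subventricular zone (V-SVZ) was followed in bulk RNA from wild-type (WT) mice and from knockouts (KO) of *Lrig1*. The genes were *Gfap*, *Nes*, *Vim*, *Sox2*, *Sox9*, *Hopx*, *Thbs4*, *Prom1* and *Vcam1*. They were taken by name from the table of estimated counts, and all 9 were found among its 54307 genes and passed the filter on low counts that left 17669 genes for testing. The rule that names them uses no measured value, but the 9 genes were chosen with earlier results of these data known.

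The study asked which signalling pathways were altered in the V-SVZ when LRIG1, a transmembrane inhibitor of growth factor signalling, was lost. PolyA RNA from the dissected periventricular area of 1 hemisphere of each mouse was sequenced at 8 weeks of age in 4 KO mice, of which 2 were female, and in 4 WT mice, of which 3 were female, the remaining mice being male. All 8 mice were on the 129 background, of which the study used the 129-Elite strain. KO mice were homozygous for CreERT2 inserted in exon 1 of *Lrig1*, a constitutive loss in every cell of the body, and WT mice were littermates with both *Lrig1* alleles intact. The tissue was not sorted, so that each value is an average over all cells of the dissection.

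Adult V-SVZ stem cells are astrocyte-like cells that touch the ventricle, rest for most of the time, and give rise to transit-amplifying progenitors and then to neuroblasts that migrate to the olfactory bulb. They are recognised by the filaments of their cytoskeleton (*Gfap*, *Nes*, *Vim*), by transcription factors (*Sox2*, *Sox9*), by a regulator linked with quiescence (*Hopx*) and by molecules of the matrix and the cell surface (*Thbs4*, *Prom1*, *Vcam1*). None of these genes belongs to stem cells alone: astrocytes, ependymal cells, reactive glia and vessels express several of them. In bulk tissue, fewer cells of a type and less RNA per cell cannot be told apart.

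The libraries held between 47887437 and 74482334 estimated counts. *Lrig1* was measured at 13.5 to 45.6 CPM (counts scaled to the library size and normalized by TMM) in the WT mice and at 1.17 to 4.15 CPM in the KO mice, with a log2 fold change of -3.80 ± 0.52 (SE), and its p in edgeR's quasi-likelihood test, adjusted by Benjamini-Hochberg over all genes tested, was 0.286. WT replicate 2, a male, held the lowest of the 4 WT values of *Lrig1*. It also held the highest sum of 6 genes of cortical excitatory neurons, 1666 CPM against 15.6 to 789 CPM in the 4 KO mice, and the lowest sum of 6 genes of striatal medium spiny neurons, 2129 CPM in a range that reached 6846 CPM. The neuroblast list summed to between 127 and 204 CPM and the ependymal list to between 41.4 and 92.3 CPM over the 8 mice. Genes of the V-SVZ were thus measured in every dissection beside much larger sums of striatal and oligodendrocyte genes. The dissection is therefore a mixture, and its makeup differed between mice. The male mice, WT replicate 2 and KO replicates 1 and 3, also had the highest mean log2 CPM of the cortical genes. It was 6.33, 3.98 and 5.08 in them and 0.494 to 3.69 in the females. Fits that use sex cannot separate sex from this difference in makeup.

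Of the 9 marker genes, 0 had an adjusted p under 0.1 between KO and WT in edgeR's quasi-likelihood test, where 0.00566% of the genes tested did. *Lrig1* itself did not pass this threshold, so that the count of 0 does not show the marker genes to be unchanged. *Gfap* and *Thbs4* had an unadjusted p under 0.05, 2 of 9 against 1.88% of the genes tested. Both were lower in KO, a direction that 1.08% of all genes showed with such a p. The fitted log2 fold change was below 0 for 9 of 9 marker genes and for 50.3% of the genes tested, with a median of -0.13 over the marker genes and -0.00094 over all genes tested. For 4 of the 9, *Nes*, *Sox2*, *Sox9* and *Vcam1*, the estimate lay between -0.08 and -0.0036 and was smaller than its standard error, and the sign of each changed under at least 1 alternative. The ranges of KO and WT CPM overlapped for every marker gene, where 1.53% of the genes tested had ranges that did not. The sum of the 9 genes lay between 275 and 384 CPM in WT mice and between 264 and 299 CPM in KO mice.

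A single mouse stood above the others. WT replicate 4, a female, had the highest CPM of the 8 mice for 7 of the 9 genes, with a mean rank of 2 where 1 is the highest. *Prom1*, highest in WT replicate 3, and *Vcam1*, highest in KO replicate 1, were the exceptions. Without WT replicate 4, the median log2 fold change of the 9 genes was -0.02, and 0 of the 9 had an unadjusted p under 0.05. The latter count was also 0 without WT replicate 2 and without KO replicate 3, so that it did not depend on WT replicate 4 alone.

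**Figure D1:**
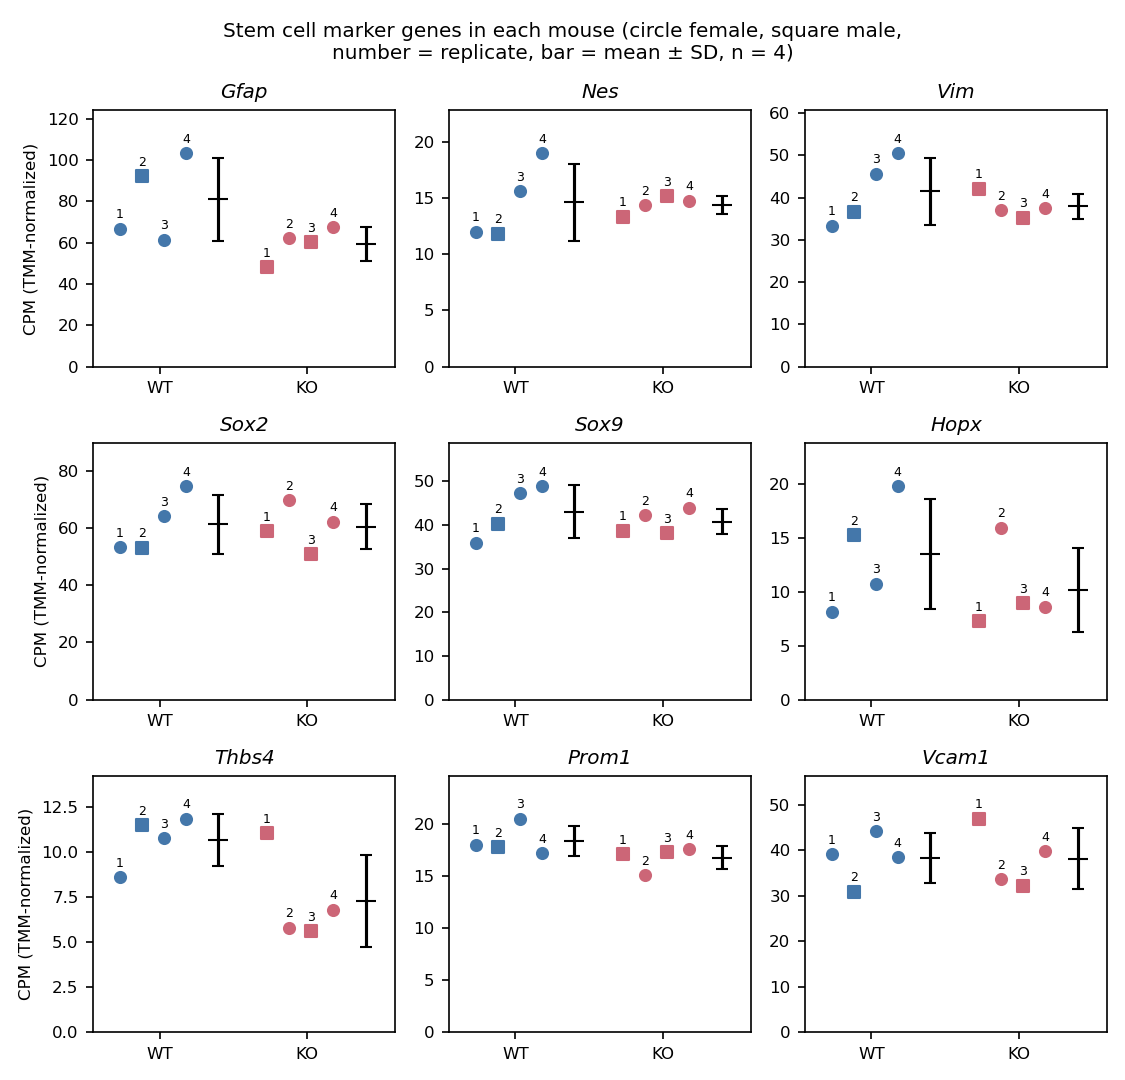
TMM-normalized CPM of the 9 marker genes in each mouse, WT in blue and KO in red, circles for females and squares for males, with the replicate number above each point and the mean ± SD of 4 mice beside it. Every axis starts at 0. WT replicate 4 is the highest point in 7 of 9 panels, and KO replicate 1 stands above the other KO mice for *Thbs4*.

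Among the filament genes, *Gfap*, which encodes the intermediate filament protein of astrocytes and V-SVZ stem cells, was measured at 66.8, 92.1, 61.4 and 103 CPM in WT replicates 1 to 4 and at 48.0, 62.2, 60.3 and 67.4 CPM in KO replicates 1 to 4. WT replicates 2 and 4 lay above every KO mouse, while WT replicates 1 and 3 lay among the KO mice. The group means were 80.9 ± 20.1 CPM (SD, n = 4) in WT and 59.5 ± 8.22 CPM (SD, n = 4) in KO. The fitted log2 fold change was -0.44 ± 0.18 (SE), with a 95% interval from -0.85 to -0.039, which corresponds to a KO to WT ratio of 0.735 between 0.555 and 0.973. The unadjusted p of edgeR's quasi-likelihood test was 0.0350 and the adjusted p 0.9998, and the 2-sided exact permutation test of the mean log2 CPM over the 70 splits of the mice gave p = 0.143, where 0.0286 is the smallest it can give. Over the fits that left out 1 mouse, the unadjusted edgeR p of *Gfap* was at or above 0.05 in 5 of 8 fits and reached 0.105. The estimate was -0.30 without WT replicate 4 and -0.25 in the females alone, an alternative chosen after seeing the data. Over the 8 mice the *Gfap* pattern was most like those of *Traf2* (Pearson r of log2 CPM 0.98), *Pkp4* (0.95) and *Rabep2* (0.94) among the genes tested, a ranking over 8 mice that carries no test.

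*Nes*, which encodes nestin, a filament protein of neural progenitors that vessel cells also make, was measured at 12.02, 11.8, 15.6 and 19.0 CPM in WT replicates 1 to 4 and at 13.3, 14.4, 15.1 and 14.8 CPM in KO replicates 1 to 4. All 4 KO mice lay inside the WT range. The coefficient of variation was 23.3% in WT and 5.44% in KO, a difference in spread for which no test was run. The log2 fold change was -0.02 ± 0.15 (SE; 95% interval -0.37 to 0.33), with an unadjusted edgeR p of 0.894 and an exact permutation p of 1. Without WT replicate 4 it was 0.13, in the opposite direction. The nearest patterns were those of *Rgl3* (r = 0.94), *Tpm4* (0.94) and *Adnp* (0.94).

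*Vim*, which encodes vimentin, a filament protein of stem cells, ependymal cells and vessels, was measured at 33.3, 36.7, 45.6 and 50.5 CPM in WT replicates 1 to 4 and at 42.1, 37.0, 35.2 and 37.5 CPM in KO replicates 1 to 4. The KO mice again fell within the range of the WT mice. The fitted difference was a log2 fold change of -0.13 ± 0.13 (SE; 95% interval -0.43 to 0.17), with an unadjusted edgeR p of 0.355 and an exact permutation p of 0.486. Without WT replicate 4 the estimate was -0.02. *Vim* was most like *Bub1* (r = 0.96), *Axl* (0.96) and *Pola1* (0.96), of which *Bub1* and *Pola1* serve the spindle checkpoint and DNA replication.

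The transcription factor *Sox2*, which keeps progenitors in an undifferentiated state and is also expressed by astrocytes and ependymal cells, was measured at 53.3, 53.0, 64.2 and 74.7 CPM in WT replicates 1 to 4 and at 58.8, 69.8, 50.9 and 62.1 CPM in KO replicates 1 to 4. Both groups spanned almost the same range. Between KO and WT the log2 fold change was -0.02 ± 0.14 (SE; 95% interval -0.33 to 0.29), with an unadjusted edgeR p of 0.878 and an exact permutation p of 0.943. Without WT replicate 4 it was 0.09. The nearest patterns were those of *Gpr37l1* (r = 0.98), a receptor of astrocytes, *Sardh* (0.97) and *Gm973* (0.97). *Sox2ot*, the noncoding transcript unit that surrounds *Sox2* on the same strand without sharing an exon, held 25.4 to 33.9 CPM.

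*Sox9*, a factor needed for the formation of neural stem cells and kept in astrocytes and ependymal cells, was measured at 35.9, 40.3, 47.3 and 49.0 CPM in WT replicates 1 to 4 and at 38.7, 42.3, 38.1 and 44.0 CPM in KO replicates 1 to 4. The KO mice lay within the WT range. The log2 fold change was -0.08 ± 0.11 (SE; 95% interval -0.33 to 0.17), with an unadjusted edgeR p of 0.479 and an exact permutation p of 0.571. Over the fits that left out 1 mouse the estimate ran from -0.16 without WT replicate 1 to -0.01 without WT replicate 4. The closest patterns were those of *Nim1k* (r = 0.98), *Chst3* (0.95) and *Gm10561* (0.95).

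*Hopx*, an atypical homeodomain protein that does not bind DNA itself, was measured at 8.17, 15.3, 10.8 and 19.9 CPM in WT replicates 1 to 4 and at 7.26, 16.0, 8.94 and 8.62 CPM in KO replicates 1 to 4. The libraries of 3 mice, WT replicates 2 and 4 and KO replicate 2, held at least 15.3 CPM, and the other 5 held at most 10.8 CPM. With a highest to lowest ratio of 2.73 over the 8 mice, *Hopx* varied the most of the 9 genes, with about the same coefficient of variation in WT (38.1%) as in KO (38.4%). For KO over WT the log2 fold change was -0.41 ± 0.32 (SE; 95% interval -1.14 to 0.32), with an unadjusted edgeR p of 0.238 and an exact permutation p of 0.314. The estimate moved to -0.16 without WT replicate 4 and to -0.71 without KO replicate 2, where the unadjusted edgeR p was 0.0404, and it was -0.07 in the females alone. It was most like *Csf1* (r = 0.97), *Ccdc96* (0.97) and *Polrmt* (0.96).

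Of the matrix and surface molecules, *Thbs4*, which encodes thrombospondin 4, a secreted protein made by V-SVZ astrocytes, was measured at 8.64, 11.5, 10.8 and 11.9 CPM in WT replicates 1 to 4 and at 11.1, 5.81, 5.61 and 6.81 CPM in KO replicates 1 to 4. KO replicates 2, 3 and 4 lay below every WT mouse, and KO replicate 1 lay within the WT range. The group means were 10.7 ± 1.45 CPM (SD, n = 4) in WT and 7.32 ± 2.55 CPM (SD, n = 4) in KO. This gave a log2 fold change of -0.55 ± 0.23 (SE; 95% interval -1.06 to -0.037), a KO to WT ratio of 0.684 between 0.480 and 0.975. The unadjusted p of edgeR's test was 0.0383 and the adjusted p 0.9998, and the exact permutation test gave p = 0.0857. Without KO replicate 1 the estimate was -0.82 with an unadjusted edgeR p of 0.000583 and an adjusted p of 0.9998. In the other direction, the estimate was -0.44 without KO replicate 3, and the unadjusted edgeR p was at or above 0.05 in 6 of the 8 fits that left out 1 mouse, all but those without WT replicate 1 and KO replicate 1, with a highest value of 0.0977. It was 0.0570 in edgeR with the replicate number as a covariate. With sex as a covariate the estimate was -0.63, and in the females alone, where both KO mice lay below the 3 WT mice, it was -0.72, with an unadjusted p of 0.00679 and an adjusted p of 0.844 in edgeR's quasi-likelihood test. Neither fit can separate sex from the makeup of the dissection. The estimated counts behind these values ran from 343 to 703 per mouse, and 343 was the lowest count of any marker gene in any mouse. The nearest patterns were those of *Sgo1* (r = 0.96), *Ccdc92b* (0.96) and *0610040J01Rik* (0.95).

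*Prom1*, which encodes prominin-1 (CD133), a protein of membrane protrusions and cilia found on stem cells and ependymal cells, was measured at 18.03, 17.8, 20.5 and 17.2 CPM in WT replicates 1 to 4 and at 17.1, 15.1, 17.3 and 17.6 CPM in KO replicates 1 to 4. It varied the least of the 9 genes, by a highest to lowest ratio of 1.36, with only 2 KO mice inside the WT range. The log2 fold change was -0.13 ± 0.09 (SE; 95% interval -0.33 to 0.068), with an unadjusted edgeR p of 0.171 and an exact permutation p of 0.0857. Genes with a pattern close to it included *4931406C07Rik* (r = 0.99) and *Znrf1* (0.96).

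*Vcam1*, an adhesion molecule that anchors stem cells at the ventricular surface and is also made by vessels, was measured at 39.2, 30.9, 44.2 and 38.5 CPM in WT replicates 1 to 4 and at 46.9, 33.6, 32.2 and 39.8 CPM in KO replicates 1 to 4. Only KO replicate 1 lay outside the WT range. KO over WT, the log2 fold change was -0.0036 ± 0.15 (SE; 95% interval -0.33 to 0.33), with an unadjusted edgeR p of 0.981 and an exact permutation p of 0.971. Of the 8 fits that left out 1 mouse, 5 gave an estimate above 0, and the values ran from -0.12 without KO replicate 1 to 0.07 without WT replicate 3. *Vcam1* was most like *Tpt1* (r = 0.99), *Rps2* (0.99) and *Dnpep* (0.98), of which *Rps2* encodes a protein of the small ribosomal subunit. *Tpt1* and *Rps2* have processed copies whose reads may be shared.

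**Figure D2:**
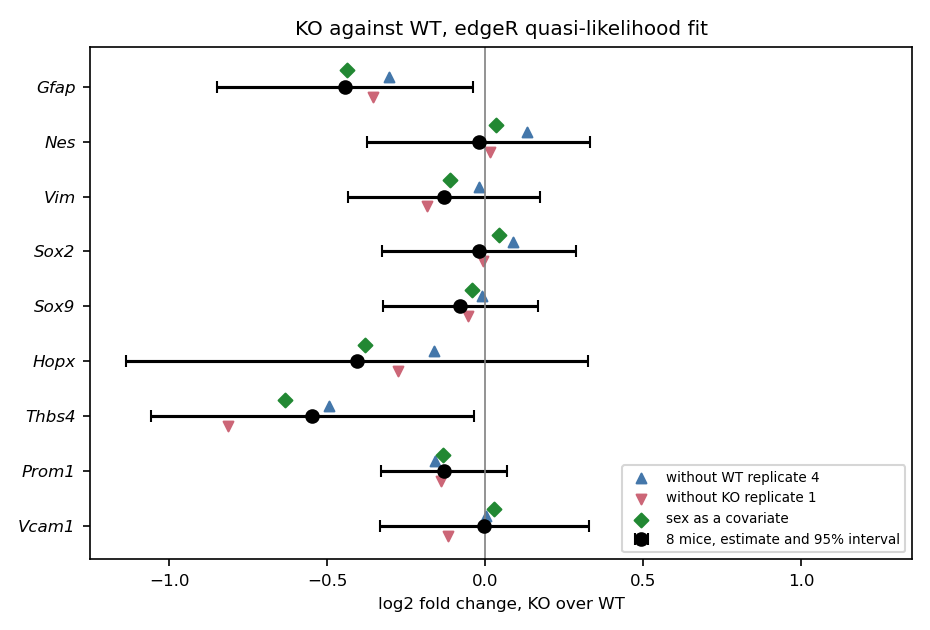
Log2 fold change of each marker gene, KO over WT, from edgeR's quasi-likelihood fit to 8 mice (black, with the 95% interval) and from the fits without WT replicate 4, without KO replicate 1 and with sex as a covariate. The intervals of *Gfap* and *Thbs4* end below 0 before adjustment, the other 7 include 0, and *Nes*, *Sox2* and *Vcam1* change sign without WT replicate 4.

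On a scale corrected for length, TPM (transcript abundance per library, summed over the transcripts of a gene), the order of the mean levels over the 8 mice was *Sox2* (44.7), *Gfap* (39.4), *Vim* (30.9), *Hopx* (19.0), *Vcam1* (16.5), *Sox9* (14.1), *Prom1* (7.17), *Thbs4* (4.01) and *Nes* (3.24). Only 2 steps of this order had ranges that did not overlap, from *Sox9* (11.4 to 18.4 TPM) to *Prom1* (5.91 to 8.24 TPM) and from there to *Thbs4* (2.55 to 5.89 TPM). *Sox2* exceeded *Gfap* in 6 of 8 mice, *Gfap* exceeded *Vim* in 7 of 8, and *Hopx* exceeded *Vcam1* in 4 of 8. TPM did not share a common scale between mice: the median ratio of TPM to CPM over 13483 genes ran from 0.445 in WT replicate 3 to 0.588 in WT replicate 4. For this reason mice were compared by CPM.

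The transcripts behind each gene were read from the TPM of the separate isoforms. *Sox2* and *Sox9* have 1 annotated transcript each in the files, so that their shares are fixed at 100%. *Thbs4* has 2, and *Thbs4-201* held 100% of its TPM in every mouse. *Nes-201* held at least 93.5%, *Gfap-201* at least 93.0%, *Vcam1-201* at least 85.6% and *Hopx-202* at least 86.5% of the TPM of its gene in every mouse. *Vim-201* held 71.8% on average and *Vim-206* 20.1%. The retained-intron transcript *Vim-203* was estimated at 17.7%, 14.9% and 24.2% of the *Vim* TPM in WT replicate 2, WT replicate 4 and KO replicate 1 and was listed at 0 in the other 5 mice. These 3 mice were also the 3 with the highest *Vim* TPM (35.1, 46.8 and 33.6), while *Vim-203* held at most 96.2 estimated counts in any of them.

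*Prom1* was divided the most. The RefSeq annotation (build GRCm38.p6) gives it 2 promoters, and the sequences of both, from 250 bases before to 50 bases after the start, are shown because the isoforms that begin at them had different shares in the mice. The first, chr5:44101687-44101986 on the minus strand, lies at the start of *Prom1-203*, and the second, chr5:44094719-44095018 on the minus strand, at the start of *Prom1-207* and 4 minor isoforms. Capitals mark GGGCGG, the GC box bound by SP1-type factors, searched on both strands. The first holds it once and the second does not, and 35.7% of 32851 RefSeq promoters of this length hold it.
Prom1 first promoter: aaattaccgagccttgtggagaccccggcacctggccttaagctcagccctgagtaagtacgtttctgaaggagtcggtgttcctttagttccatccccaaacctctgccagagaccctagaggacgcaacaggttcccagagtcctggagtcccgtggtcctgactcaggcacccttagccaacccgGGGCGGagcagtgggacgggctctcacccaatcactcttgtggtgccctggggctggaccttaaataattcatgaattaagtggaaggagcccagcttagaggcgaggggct
Prom1 second promoter: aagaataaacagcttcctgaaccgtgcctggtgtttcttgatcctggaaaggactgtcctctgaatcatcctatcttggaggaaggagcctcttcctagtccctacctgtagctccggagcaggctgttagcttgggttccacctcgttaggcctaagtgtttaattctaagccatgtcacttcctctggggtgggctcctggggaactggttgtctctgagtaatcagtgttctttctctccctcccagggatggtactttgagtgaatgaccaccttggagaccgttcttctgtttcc

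*Prom1-203* held 60.1%, 37.8%, 58.2% and 53.1% of the *Prom1* TPM in WT replicates 1 to 4 and 63.2%, 68.1%, 67.3% and 67.6% in KO replicates 1 to 4. Every KO mouse lay above every WT mouse, with means of 66.5 ± 2.26% (SD, n = 4) in KO and 52.3 ± 10.1% (SD, n = 4) in WT. The ranges of 2.29% of 18260 transcripts with a mean share between 10% and 90%, of genes with a mean of at least 1 TPM, likewise did not overlap. The exact permutation p was 0.0286, the smallest that 4 against 4 mice can give, and 0.143 after Benjamini-Hochberg adjustment over the 5 transcripts tested. Among 5 transcripts, 1 alone at the smallest p cannot pass the threshold. The adjusted p therefore could not decide whether this share differed. WT replicate 2 was far below the rest, and without it the WT mean was 57.1%, still below the lowest KO mouse. As a share of estimated counts, *Prom1-203* held 39.1% to 67.2% in WT and 67.5% to 72.3% in KO.

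*Prom1-207* held 10.6%, 35.7%, 21.4% and 17.1% in WT replicates 1 to 4 and 17.1%, 16.1%, 13.9% and 10.4% in KO replicates 1 to 4 (exact permutation p = 0.257, adjusted p = 0.357, n = 4 per group). The groups overlapped, and WT replicate 2 was again apart. *Prom1-202*, whose start lies at neither RefSeq promoter, held 11.9% to 21.0% in WT and 8.89% to 13.5% in KO (exact permutation p = 0.0857, adjusted p = 0.214, n = 4 per group). *Vim-201* and *Vim-206*, the other 2 transcripts tested, gave exact permutation p values of 0.571 and 0.286. Of the 5 transcripts, 0 passed the threshold, which 1 transcript alone could not do, and 1 had an unadjusted p under 0.05. These shares are Salmon's division of reads among isoforms that overlap in sequence, and *Prom1* had between 843 and 1305 estimated counts per mouse for 19 annotated transcripts.

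**Figure D3:**
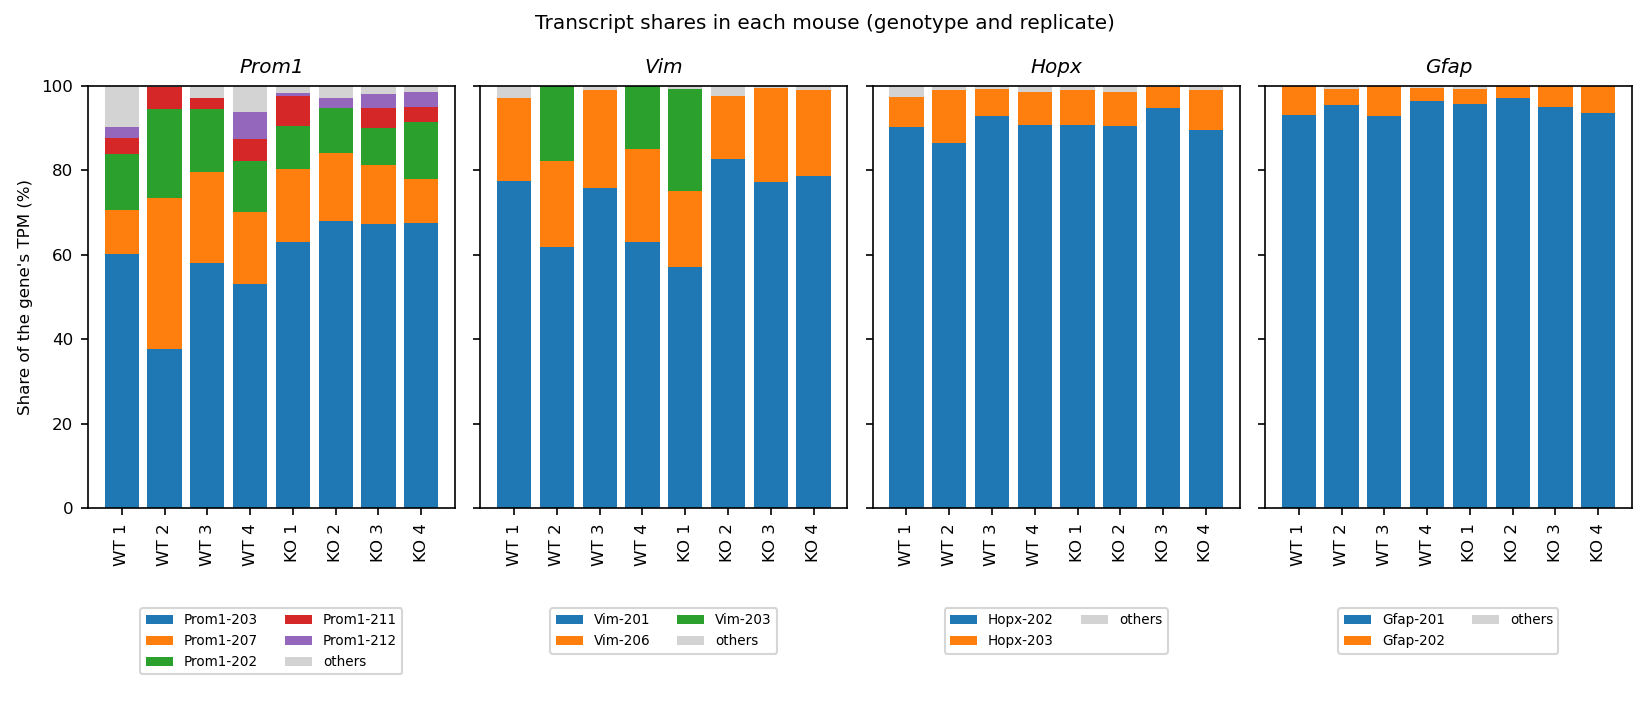
Share of the TPM of *Prom1*, *Vim*, *Hopx* and *Gfap* held by each of their main transcripts in each mouse, stacked to 100%. *Prom1-203* takes 37.8% to 60.1% in WT mice and 63.2% to 68.1% in KO mice, *Vim-203* appears in 3 mice, and 1 transcript dominates *Hopx* and *Gfap* throughout.

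*Hopx* also has 2 RefSeq promoters, and both are shown because nearly all of its RNA was assigned to 1 of them. Isoforms that begin within 100 bases of the start of the upstream one, chr5:77115074-77115373 on the minus strand of GRCm38.p6, held 0.235% to 2.52% of the *Hopx* TPM. Those at the downstream one, chr5:77095218-77095517 on the same strand, held 97.5% to 99.8%, in the mice with high *Hopx* and in the others alike. Capitals mark CACGTG, the palindromic E-box, which the downstream promoter holds once and the upstream one lacks, and which 7.15% of RefSeq promoters hold. The downstream promoter has 21 CG dinucleotides and the upstream one 8, against a median of 7 over all RefSeq promoters.
Hopx upstream promoter: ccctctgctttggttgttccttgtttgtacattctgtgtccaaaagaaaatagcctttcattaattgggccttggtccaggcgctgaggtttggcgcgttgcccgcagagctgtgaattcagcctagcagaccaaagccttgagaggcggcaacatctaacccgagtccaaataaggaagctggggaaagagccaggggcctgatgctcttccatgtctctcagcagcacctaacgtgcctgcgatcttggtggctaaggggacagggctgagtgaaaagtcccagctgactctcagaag
Hopx downstream promoter: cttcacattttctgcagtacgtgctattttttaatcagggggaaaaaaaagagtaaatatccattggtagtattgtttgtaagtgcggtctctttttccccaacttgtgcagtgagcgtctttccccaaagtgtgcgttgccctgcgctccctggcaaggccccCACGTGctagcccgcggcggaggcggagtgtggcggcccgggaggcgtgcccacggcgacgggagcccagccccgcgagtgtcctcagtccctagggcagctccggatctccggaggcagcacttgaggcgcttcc

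Of the promoters of the other marker genes, that of *Vim* holds the TATA box TATAAA, which 13.6% of RefSeq promoters hold, and those of *Sox2*, *Nes* and *Thbs4* hold the GC box. The *Vim* promoter lies at the start of *Vim-206*, not of *Vim-201*, and no annotated *Sox2* transcript began within 100 bases of the *Sox2* promoter start. The promoter of *Thbs4* has 24 CG dinucleotides and a GC content of 72.0%, and that of *Gfap* has 3 CG dinucleotides and a GC content of 55.7%. The 2 genes with the smallest p between KO and WT therefore differ widely in this feature. *Sox9* and *Vcam1* were not among the promoters used here. Antisense genes whose exons overlap *Hopx* (*Hopxos*), *Prom1* (*Gm16401*) and *Vcam1* (*Gm43109*) held at most 4, 10 and 2 estimated counts in any mouse. Because a strand setting is not given in the sources used here, reads from a gene and its antisense partner cannot be told apart.

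The marker genes did not all vary together over the 8 mice. Of the 36 pairs, 32 had a Pearson r of log2 CPM above 0, with a median of 0.34, and 7 had an unadjusted exact permutation p under 0.05. After Benjamini-Hochberg adjustment 0 pairs passed, the smallest adjusted p being 0.182. *Nes*, *Vim*, *Sox2* and *Sox9* had the closest patterns, with r between 0.72 and 0.82 in their 6 pairs and Spearman rho between 0.55 and 0.86. The highest was *Sox2* with *Sox9* (r = 0.82, exact permutation p = 0.0143, adjusted p = 0.182, n = 8; rho = 0.81, p = 0.0218), which was 0.68 without the 2 mice farthest from the median of *Sox2*. Without WT replicate 4 the 6 values were between 0.47 and 0.72.

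*Gfap* and *Hopx* made a separate pair (r = 0.78, exact permutation p = 0.0202, adjusted p = 0.182, n = 8; rho = 0.57, p = 0.151). It rested partly on single mice, with r = 0.31 without the 2 mice farthest from the median of *Gfap* and 0.61 without WT replicate 4. *Vcam1* ran against both, at r = -0.45 with *Gfap* and -0.47 with *Hopx* (exact permutation p = 0.268 and 0.234, n = 8). *Thbs4* was nearest to *Vim* (r = 0.62, exact permutation p = 0.106, n = 8) and near 0 with *Nes* (r = 0.01). *Prom1* had the lowest median r with the other 8 genes, 0.11. *Gfap* and *Thbs4*, the 2 marker genes with the smallest p between KO and WT, were correlated at r = 0.37. Sex leaves at most 5 mice in a group, too few for a correlation within a sex.

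Because the marker genes are expressed by other cells of the dissection, each was also set beside the mean log2 CPM of 12 lists of cell type genes, 108 pairs in all, from which the marker genes were left out. In this family 0 pairs passed the threshold of an adjusted p under 0.1, and 4 had an adjusted p of 0.106. *Sox2* followed the ependymal genes (r = 0.92, exact permutation p = 0.00156, n = 8; rho = 0.95, p = 0.00114) and the genes of parenchymal astrocytes (r = 0.89, exact permutation p = 0.00394, n = 8; rho = 0.90, p = 0.00456). *Vim* followed the genes of activated stem cells and transit-amplifying progenitors (r = 0.89, exact permutation p = 0.0034, n = 8; rho = 0.88, p = 0.0072). *Vcam1* followed the genes of striatal medium spiny neurons (r = 0.88, exact permutation p = 0.0028, n = 8; rho = 0.86, p = 0.0107). Each of these 4 values stayed between 0.82 and 0.97 without the 2 mice farthest from the median of the marker gene.

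*Vcam1* was also near the microglia genes (r = 0.88, adjusted exact permutation p = 0.147, n = 8; rho = 0.67), and *Hopx* near the genes of reactive astrocytes (r = 0.81, adjusted exact permutation p = 0.253, n = 8; rho = 0.81) and opposite to those of oligodendrocytes (r = -0.71, adjusted exact permutation p = 0.368, n = 8; rho = -0.88). *Prom1* was nearest to the mural cell genes (r = 0.82), a value that turned to -0.33 without the 2 mice farthest from the median of *Prom1*. The r of *Gfap* with the 12 lists lay between -0.53 and 0.30. As deviations from the genotype means, 7 of the 108 pairs had an adjusted exact permutation p under 0.1 (n = 8), namely the 4 above, *Vcam1* with microglia and both *Hopx* pairs. These deviations hold fewer free values than mice, which the permutation does not take into account.

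**Figure D4:**
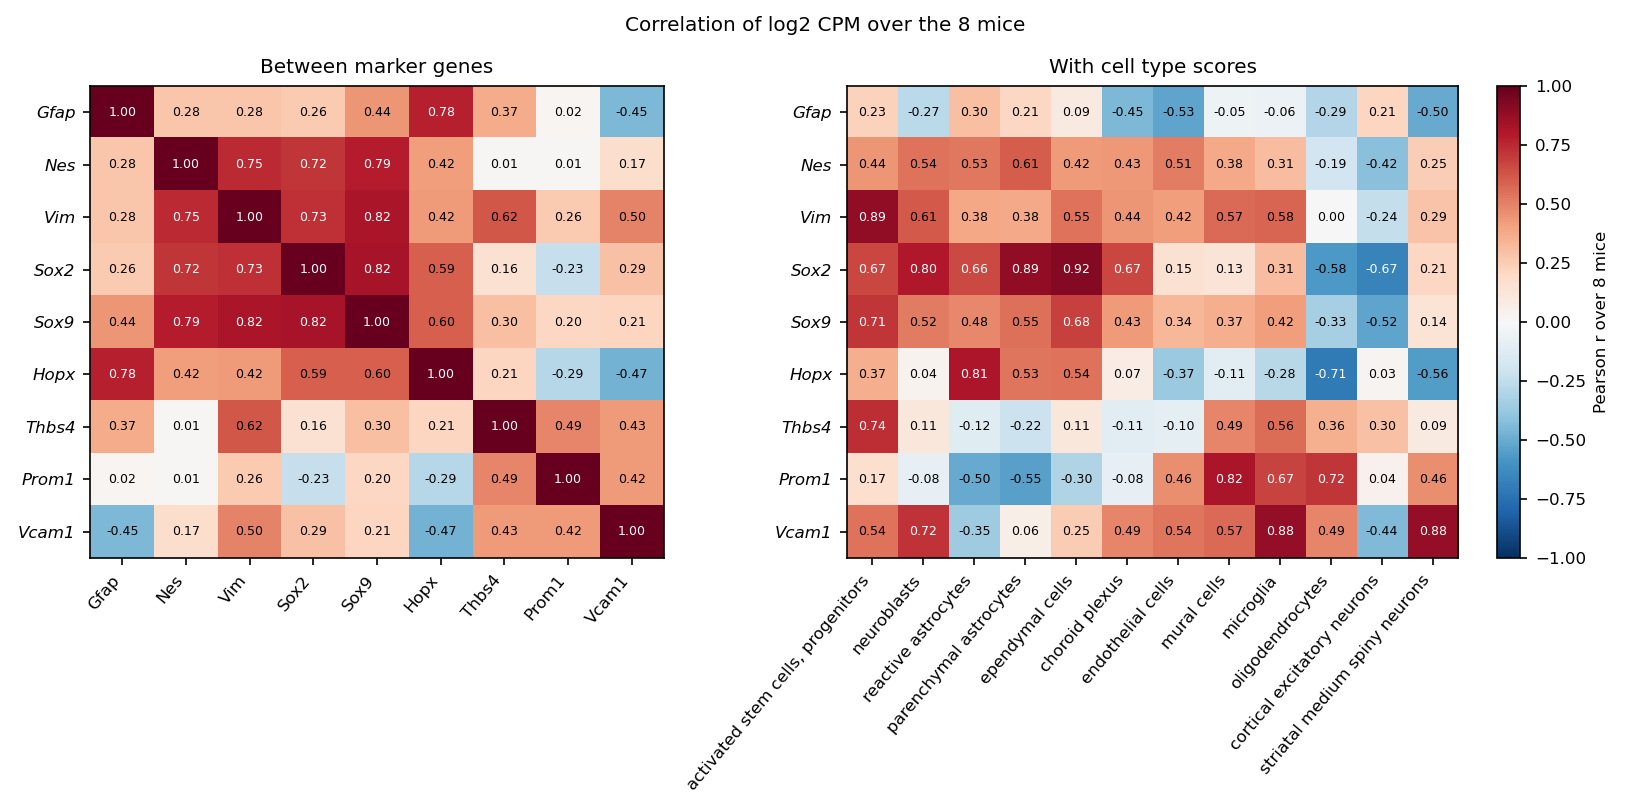
Pearson r over the 8 mice of log2 CPM between the marker genes (left) and between each marker gene and the mean of 12 lists of cell type genes (right), red for positive and blue for negative values. *Nes*, *Vim*, *Sox2* and *Sox9* form a block between 0.72 and 0.82, *Gfap* and *Hopx* pair at 0.78, and *Sox2* reaches 0.92 with the ependymal genes.

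Other genes of the stem cell and its lineage were read from lists chosen with earlier results of these data known. Of 20 further genes of V-SVZ stem cells and related astrocytes, 13 were lower and 7 higher in KO. Of them 0 passed the threshold, where 0.00566% of all genes tested did, and 3 had an unadjusted p under 0.05, where 1.88% did. The median log2 fold change was -0.11, between -0.14 and -0.04 over the fits that left out 1 mouse. *Tnc*, which encodes the matrix protein tenascin C of the stem cell niche, was measured at 4.41 to 7.58 CPM in WT and 1.91 to 4.28 CPM in KO, with a log2 fold change of -0.84 ± 0.26 (SE) and, in edgeR's quasi-likelihood test, an unadjusted p of 0.0118 and an adjusted p of 0.9998. *Glul*, the glutamine synthetase of astrocytes, lay at 1577 to 1814 CPM in WT and 1439 to 1491 CPM in KO, with a log2 fold change of -0.21 ± 0.09 (SE) and an unadjusted edgeR p of 0.0383. The groups did not overlap for these 2 of the 20 genes, which were picked by their p, where 1.53% of all genes tested had groups that did not. The third, *Fabp7*, a fatty acid binding protein of radial glia named here after its values were seen, was higher in KO, at 28.7 to 46.0 CPM against 19.6 to 35.1 CPM, with a log2 fold change of 0.46 ± 0.20 (SE) and an unadjusted edgeR p of 0.0470. In DESeq2 with sex as a covariate, an alternative chosen after seeing the data that called 201 genes, *Fabp7* (adjusted p = 0.0170) and *Tnc* (adjusted p = 0.0976) passed the threshold. In that fit, sex and the cortical part of the dissection cannot be told apart.

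Of 12 genes of activated stem cells and transit-amplifying progenitors, 9 were lower and 3 higher in KO. Of them 0 had an unadjusted edgeR p under 0.05, where 1.88% of all genes tested did. The median was -0.09 and ran from -0.21 without KO replicate 1 to 0.01 without KO replicate 3. *Egfr*, the receptor that marks activated stem cells, was at 20.1 to 24.4 CPM in WT and 18.9 to 21.8 CPM in KO, and the proliferation gene *Mki67* at 4.88 to 9.85 CPM in WT and 5.69 to 6.78 CPM in KO. Of 8 neuroblast genes, 5 were higher and 3 lower in KO, with a median of 0.07 that was below 0 in 4 of the 8 fits that left out 1 mouse (-0.07 without WT replicate 2, 0.18 without KO replicate 3). The migration gene *Dcx* lay at 28.1 to 33.2 CPM in WT and 24.6 to 30.6 CPM in KO, and *Sox11* at 25.0 to 40.4 CPM in WT and 27.1 to 43.4 CPM in KO. On these lists 0 genes passed the threshold, where 0.00566% of all genes tested did, so that the count says little about these stages.

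Of 22 relatives and partners of the marker genes (other intermediate filament, SOX and thrombospondin genes, *Prom2*, *Sox2ot* and integrin and lipoprotein receptor genes), 15 were lower and 7 higher in KO. Of them 0 had an unadjusted edgeR p under 0.05, where 1.88% of all genes tested did, so that this count says little. The median was -0.10 and ran from -0.16 without WT replicate 1 to 0.02 without WT replicate 2. *Des*, the intermediate filament gene of muscle and vessel walls, lay at 1.34 to 1.57 CPM in WT and 0.948 to 1.43 CPM in KO. *Sox10*, the factor of the oligodendrocyte lineage, lay at 39.5 to 57.0 CPM in WT and 35.3 to 44.1 CPM in KO.

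For the other cell types that express the marker genes, 7 of 12 genes of parenchymal astrocytes were lower in KO (median -0.02, from -0.13 without KO replicate 2 to 0.04 without KO replicate 1, summed level 4634 to 5257 CPM in WT and 4349 to 5093 CPM in KO). Of the reactive astrocyte genes, 6 of 10 passed the filter, 3 were higher and 3 lower (median -0.02, 0.05 without WT replicate 2), and the sum lay at 89.8 to 147 CPM in WT and 89.6 to 124 CPM in KO. Of the ependymal genes, 9 of 13 were higher in KO (median 0.07, but -0.13 without KO replicate 2 and 0.22 without KO replicate 3), with sums of 49.3 to 74.4 CPM in WT and 41.4 to 92.3 CPM in KO. Of the mural genes, 8 of 8 were lower in KO (median -0.24, between -0.35 and -0.14 with each mouse left out, 187 to 256 CPM in WT and 159 to 208 CPM in KO), with *Pdgfrb* at an unadjusted edgeR p of 0.0379. Of the endothelial genes, 6 of 8 were higher (median 0.04, from -0.01 without WT replicate 2 to 0.14 without WT replicate 3). Of the microglia genes, 6 of 8 were lower (median -0.13, between -0.23 and -0.05 with each mouse left out, 408 to 549 CPM in WT and 389 to 500 CPM in KO), with *Csf1r* at an unadjusted edgeR p of 0.0351. Of the choroid plexus genes, 7 of 10 passed the filter and 4 were lower (median -0.13, 0.40 without WT replicate 3), and 6 of 7 oligodendrocyte genes were lower with a median of -0.04 (0.02 without KO replicate 2). Of the cortical neuron genes 6 of 6 were lower, with a median of -0.91 that rested on WT replicate 2 and was 0.74 without it, and of the striatal genes 6 of 6 were lower with a median of -0.09 that was -0.34 without WT replicate 2 and 0.12 without WT replicate 3. No gene of these lists passed the threshold in edgeR, where 0.00566% of all genes tested did. DESeq2 with sex as a covariate called 1 choroid plexus gene, *Clic6*, and 2 cortical genes, *Slc17a7* and *Emx1*. The mean of the cortical genes was highest in the males, so that this fit cannot separate sex from the dissection. No defining marker of any of these cell types was at 0 in all mice. The part of these cell types in the values of the marker genes was not tested beyond the correlations given above.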

How the data were processed

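PolyA RNA of the dissected tissue of 4 *Lrig1* KO and 4 WT mice was sequenced and, per the labels, processed with bcl2fastq and Salmon. The authors quantified reads with Salmon against Gencode M29 and deposited 1 gene table of estimated counts, not normalized, and transcript files with estimated counts and TPM, 1 file per mouse. The strand setting and the way transcripts were summed to genes are not given in the sources used here. For the 9 marker genes, the gene counts equalled the sum of the transcript counts. No sample columns were left over.

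Groups, replicate numbers and sex came from the labels. Each mouse is 1 library from 1 hemisphere, so p-values of KO versus WT set the difference against the spread between mice. That spread includes the dissection and the library, which cannot be told apart from the animal. Gene tables named 94.8% of the 54307 gene identifiers. Gencode M21 (GRCm38), an older build than that of the authors, matched 97.4% of the transcripts and served for transcript names, start sites and overlaps, and promoters came from RefSeq (GRCm38.p6), where 7 of the 9 genes had an entry. No coordinates of the authors' build were used.

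Estimated counts were rounded and tested with edgeR 4.0.16 in R 4.3.3 (TMM, filterByExpr, quasi-likelihood test, no covariate), and p-values were adjusted by Benjamini-Hochberg over 17669 genes and a threshold of an adjusted p under 0.1. Standard errors are the size of the log2 fold change over the square root of F. CPM are TMM-normalized, and log2 CPM has a prior count of 2. Exact permutation tests are 2-sided and run over the 70 splits of the 8 mice or over all pairings. Transcripts with a mean share of 10% to 90% of the TPM of their gene were tested. The fit was tested on simulated counts. Python 3.11.15, numpy 2.4.6, scipy 1.17.1 and pandas 2.3.3 were used for the rest. The depth of each mouse is the sum of its estimated counts, which sets the counting error of each value. The precision of the comparisons is limited by 4 mice per group.

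The members and the gene lists were chosen with earlier results of these data known. The text names the marker genes, up to 2 genes per list with the smallest unadjusted p, the 3 genes most like each marker gene by Pearson r, and *Lrig1*. For *Prom1*, 1 of these 3 genes is not reported here. For lists given only as summed levels, single genes are named where the unadjusted p was under 0.05 or where an alternative called them. Alternatives were DESeq2 1.42.0 and its size factors, other filters on low counts, sex or the replicate number as a covariate, length offsets, TPM with a pseudocount of 0.01, Spearman's rho, deviations from genotype means and each mouse left out in turn.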

Additional observations from a re-analysis of the deposited data

Results flagged for a closer look

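In 1 of 54 groups of 4 mice checked for a mouse that stands apart (1.85%), the gap between the lowest mouse and its nearest neighbour was past the 95% critical value of Dixon's test for 4 values. It was the share of *Prom1-203* in the *Prom1* TPM of KO replicate 1, at 63.2%, where the next KO mouse was at 67.3%. Chance marks about 1 in 20 such groups. KO replicate 1 was nevertheless above every WT mouse for this share.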

How the results depend on the processing

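In every alternative, 0 of the 9 marker genes and 0 of the transcript shares passed the threshold. *Lrig1* itself did not pass it in the fit as reported. It did pass without a filter on low counts, with sex as a covariate and without WT replicate 2, all in edgeR. With 4 mice per group, these counts of 0 still do not show the marker genes to be unchanged. Among the 5 transcripts tested, 1 alone at the smallest exact permutation p could not pass the threshold. *Gfap*, *Vim*, *Hopx*, *Thbs4* and *Prom1* stayed below 0 in all 18 alternatives, with ranges of -0.56 to -0.25, -0.22 to -0.02, -0.71 to -0.07, -0.82 to -0.44 and -0.18 to -0.07. The genes called numbered 1 as reported, 2 without a filter or with sex as a covariate, 0 with at least 10 counts in every mouse, 12 with DESeq2, and 0 to 3 with each mouse left out. Among alternatives chosen after seeing the data, they numbered 3 in females alone and 201 with DESeq2 and sex. The marker genes with an unadjusted p under 0.05 numbered 2 as reported, 1 in females alone, 0 with sex as a covariate and without WT replicate 4 (chosen after seeing the data), and 0 to 2 with each mouse left out. Estimates close to 0 changed sign. With sex as a covariate, *Nes* was 0.0332, *Sox2* 0.0442 and *Vcam1* 0.0286, and in DESeq2 with sex they were 0.0305, 0.0413 and 0.0263. With sex and without WT replicate 4, *Nes* was 0.15, *Sox2* 0.12, *Sox9* 0.0052 and *Vcam1* 0.0267, and *Sox2* was 0.0466 in females alone. With each mouse left out, *Nes* ran from -0.11 to 0.13, *Sox9* from -0.16 to -0.01, *Sox2* from -0.0978 to 0.0884 and *Vcam1* from -0.118 to 0.0745. With TPM in place of CPM, the exact permutation p of *Nes* was 0.914 and its log2 difference -0.04, opposite in sign to that of the mean log2 CPM. With the replicate number as a block, 0 genes were called, 1 marker gene had an unadjusted p under 0.05 and *Nes* was 0.0044. Same-numbered mice did not deviate together (r = 0.08, -0.22, -0.22 and 0.27), and the pairing was not used. Of the correlations between marker genes, 9 were called with TPM, whose scale differed between mice, and 0 to 1 with each mouse left out. Of those with cell type scores, 7 were called as deviations from genotype means and 0 to 1 with each mouse left out. The causes were not tested.

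There were 4 mice per group, with unequal numbers of each sex, and the sums of cell type genes differed between dissections. Every marker gene had at least 343 estimated counts per mouse. Isoform shares rest on fewer reads. Which of these limits the precision was not tested.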
